A study of Rattus norvegicus with 54 samples.

Results

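Atp1b1 encodes the beta-1 subunit of the sodium pump, and Aqp1 encodes the water channel aquaporin-1. All probe sets that the array annotation assigns to either symbol alone were taken, which gave 4 of the 15866 probe sets besides controls and 2 of the 10411 gene symbols on the array. Each gene had 2 probe sets, and all 4 passed the filter on low signals in each of the 3 tissues. Atp1b1 was measured by 1367814_at and 1386937_at, and Aqp1 by 1369625_at and 1387651_at. For each gene the probe set named first had the higher mean over all arrays, and values below come from it unless the other is named. Atp1b1 had already been picked out by its adipose values, and Aqp1 was picked from results of these arrays. The adipose differences of Atp1b1 and all differences of Aqp1 from untreated or lean rats are therefore given as descriptions, with no test.

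The sodium pump is a membrane ATPase that exchanges intracellular sodium for extracellular potassium. The pump needs a beta subunit, such as that from Atp1b1, to reach the plasma membrane, and small FXYD proteins tune its activity. Aqp1 forms a pore that lets water follow osmotic gradients across red cell, kidney tubule and capillary endothelial membranes. Fluid retention is a known side effect of PPARgamma ligands of the thiazolidinedione class.

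RNA came from the epididymal fat, liver and gastrocnemius muscle of male Zucker rats, on 54 arrays of 3 per group. Each array carried RNA pooled from 2 rats, so a group stands for 6 rats if no rat was used on more than 1 array. In each tissue there were 6 groups. The lean rats were fa/+ and received no ligand. The obese rats were fa/fa, homozygous for the fatty mutation in the leptin receptor. They were untreated or received pioglitazone, rosiglitazone, troglitazone or AG035029, labelled as ligands of the nuclear receptor PPARgamma. The first 3 are thiazolidinediones, and for AG035029 the labels give a code name alone. The labels give neither dose nor duration, so ligand and dose cannot be told apart in any difference between ligand groups. There were no lean rats given a ligand. Every ligand comparison in a tissue uses the same 3 arrays of untreated obese rats, which also serve the comparison with lean rats.

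Array signals had a trimmed mean between 500.1 and 500.2 on every array, so a level in 1 tissue is relative to that tissue's total. Median signals ran from 205.3 to 247.6 in adipose tissue, 200.8 to 248.45 in liver and 190.85 to 232.5 in muscle. The labelled tissues carried their defining transcripts, with summed adipocyte markers of 32802 to 48276 in adipose tissue, hepatocyte markers of 192145 to 326455 in liver and muscle-fibre markers of 249968 to 505512 in muscle. In adipose tissue 4 arrays stood apart, with a signal above 500 for Epcam, a surface protein of epithelial cells. They were untreated replicates 1 and 2, rosiglitazone replicate 2 and AG035029 replicate 1, and adipose results are given with and without them. In liver, troglitazone replicate 3 had a summed muscle-fibre signal of 22579, against at most 1429 on the other liver arrays. Differences are in log2(signal + 20) with standard errors from limma after ±, and group means carry an SD over n = 3 arrays.

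The promoter collection used here held an entry for Aqp1 and none for Atp1b1, so only the Aqp1 upstream sequence is shown. It is the 250 bases before the RefSeq start, chr4:85812534-85812783 on the plus strand of GRCr8, with matches to the motifs named next in capitals.

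Aqp1: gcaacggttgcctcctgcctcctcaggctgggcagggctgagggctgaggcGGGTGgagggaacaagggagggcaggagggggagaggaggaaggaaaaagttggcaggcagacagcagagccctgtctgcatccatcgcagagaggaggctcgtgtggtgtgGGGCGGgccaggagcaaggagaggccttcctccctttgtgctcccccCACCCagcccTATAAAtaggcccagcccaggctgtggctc

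The window had a GC content of 65.2%, against a median of 51.2% over all promoters. Reading 5′ to 3′ on both strands, the TATA box TATAAA matched once, 30 bases upstream of the start, and 12.9% of 33469 promoters of the same length held it. The GC box GGGCGG matched 87 bases upstream and was held by 30.5% of promoters. CACCC matched 40 bases upstream and, on the other strand, 199 bases upstream, and 49.2% of promoters held it. The nuclear receptor half-site AGGTCA, held by 14.1%, was not found, nor was the DR1 element, a direct repeat of that half-site held by 0.0508%. No match says only that these letters are not in this window.

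In adipose tissue Aqp1 signals overlapped between lean and untreated obese rats and were lower in the ligand groups. Lean rats gave 2446.6, 3058.9 and 2949.3, and untreated obese rats gave 3241.7, 2974.5 and 2341.8. Those ranges overlapped, and the obese minus lean difference was 0.01 ± 0.25. Pioglitazone arrays read 1206.1, 1449.2 and 1525.6, and rosiglitazone arrays 1252.9, 2693.5 and 1524.5. With troglitazone the signals were 1183.9, 1887.8 and 944.6, and with AG035029 they were 761.6, 892.9 and 1052.1. Of the 12 ligand arrays, 11 lay below the lowest untreated array and below the lowest lean array. The exception was rosiglitazone replicate 2, which lay within the lean range.

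The mean Aqp1 signal of the ligand groups in adipose tissue was 47.8% of that in untreated obese rats, a log2 difference of -1.12 ± 0.20 (95% interval -1.53 to -0.71). The difference from untreated rats was -1.02 for pioglitazone, -0.70 for rosiglitazone, -1.13 for troglitazone and -1.64 for AG035029, each with a standard error of 0.25. The AG035029 group had the lowest mean, 902 (SD 145), and its highest array lay below every pioglitazone and rosiglitazone array. Over all tested probe sets in this tissue, all pioglitazone arrays lay below all untreated arrays for 21.9%, all rosiglitazone arrays for 13.6%, all troglitazone arrays for 20% and all AG035029 arrays for 19.8%. For Aqp1 the ranges were apart in this way for pioglitazone, troglitazone and AG035029. The ligand mean difference was called at an adjusted p under 0.05 for 20.6% of probe sets, 9.01% higher and 11.6% lower, and nothing is read from this for Aqp1. The median of all tested probe sets was -0.05. In these bulk samples fewer cells of a type and less RNA per cell cannot be told apart.

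The second Aqp1 probe set gave a smaller adipose difference in the same direction, -0.55 ± 0.16 for the ligand mean. Its signals were 2169.7, 2105.8 and 2227.6 in lean rats and 2513, 1851 and 1468.9 in untreated obese rats, whose lowest array lay within the ligand range of 885.5 to 1910.4. On this probe set 10 of the 12 ligand arrays lay below the lowest untreated array, and all 12 lay below the lowest lean array. All ligand arrays lay below all lean arrays for 11.5% of tested probe sets. The probe sets correlated at r = 0.811 over the 18 adipose arrays. On the second probe set the difference was -0.57 for pioglitazone, -0.34 for rosiglitazone, -0.67 for troglitazone and -0.63 for AG035029, so AG035029 did not stand lowest there.

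Muscle showed the same picture for Aqp1 with clearer separation. Lean rats gave 2734.3, 2117.4 and 1759.8, and untreated obese rats gave 1854.1, 2930.8 and 1698. These groups overlapped, with a difference of -0.05 ± 0.23. Pioglitazone arrays read 912.8, 844.7 and 616.2, and rosiglitazone arrays 875.2, 1071.6 and 921.8. Troglitazone arrays read 685.8, 1287.1 and 845.7, and AG035029 arrays 680, 706.9 and 780.3. All 12 ligand arrays lay below all 3 untreated arrays and all 3 lean arrays.

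The Aqp1 ligand mean in muscle was 39.4% of the untreated signal, a log2 difference of -1.31 ± 0.18 (95% interval -1.69 to -0.93). By ligand it was -1.40 for pioglitazone, -1.12 for rosiglitazone, -1.19 for troglitazone and -1.51 for AG035029, each with a standard error of 0.23. Complete separation below untreated rats was found for 0.378% of the tested muscle probe sets, and below lean rats for 0.966%. An adjusted p under 0.05 for the ligand mean was reached by 0.242% of probe sets. The comparison by which Aqp1 was chosen is not recorded, so these shares are background and no test of Aqp1. The second probe set had a ligand mean difference of -0.73 ± 0.20, with 11 of 12 arrays below the lowest untreated array, and correlated with the first at r = 0.795. By ligand its muscle difference was -0.61 for pioglitazone, -0.50 for rosiglitazone, -0.62 for troglitazone and -1.19 for AG035029.

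Liver had little Aqp1 signal and no separation of groups. Lean rats gave 286.1, 391.4 and 317, untreated obese rats 238, 304.8 and 411.9, and the 12 ligand arrays lay between 205.8 and 423.6 with a median of 254.6. The ranges overlapped throughout, with differences of -0.08 ± 0.28 for obese minus lean and -0.15 ± 0.22 for the ligand mean. Here the probe sets correlated at only r = 0.202. On the second one the obese minus lean difference was -0.51 ± 0.34, where lean replicate 2 read 1040.9 against 561.2 and 440.6 for the other lean arrays.

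**Figure D1:**
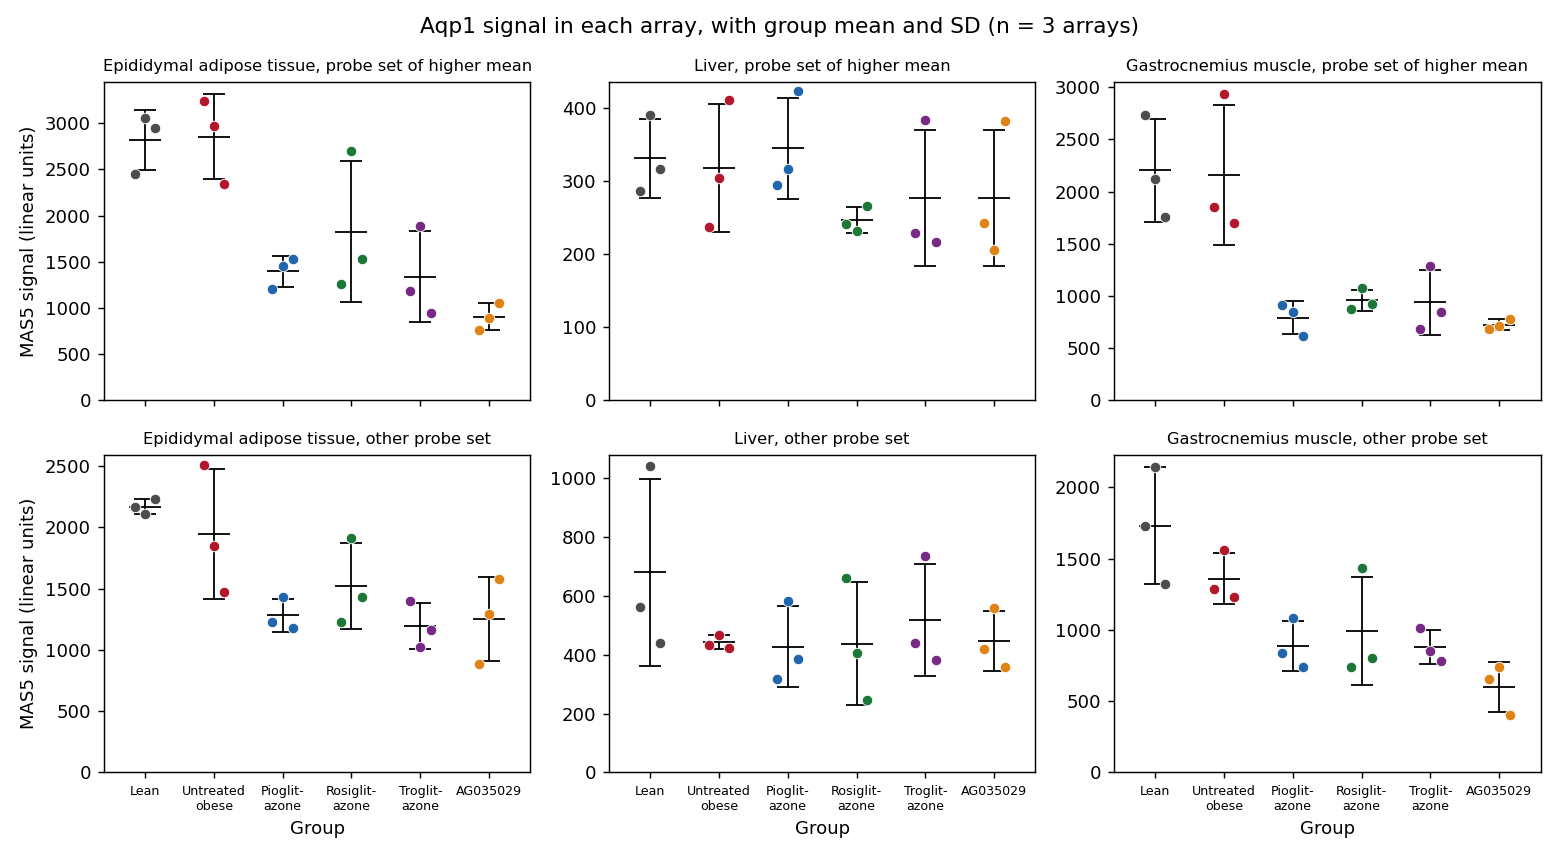
Aqp1 signal on each array (linear scale) by tissue and group, with the mean and SD of 3 arrays. The top row shows the first probe set and the bottom row the second. In the top row the 12 muscle ligand arrays lie between 616.2 and 1287.1, below all untreated and lean arrays. There 11 of 12 adipose ligand arrays lie below them, and in liver the groups overlap. In the bottom row 11 of 12 ligand arrays in muscle and 10 of 12 in adipose tissue lie below the lowest untreated array.

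Aqp1 is a marker of capillary endothelium and of red cells, so the marker lists of those cells are given beside it. In adipose tissue the summed endothelial signal was 10847 to 13648 in lean, 8808 to 9159 in untreated and 6411 to 9420 in ligand-treated rats. Of 11 tested endothelial markers there, the ligand mean was lower for 3 and higher for 1 at an adjusted p under 0.05 (limma), against 11.6% and 9.01% of all probe sets. The tight junction gene Cldn5 fell by 2.04, Emcn by 0.77 and Eng by 0.45 on the log2 scale, and the VEGF receptor gene Kdr rose by 0.95. In muscle 0 of 10 tested endothelial markers passed (limma), with 1 at an unadjusted p under 0.05, and the sum was 3789 to 4034 in untreated and 3285 to 5811 in ligand-treated rats. Red cell markers passed for 0 of 5 in muscle (limma), with 0 at an unadjusted p under 0.05. Their sum was 16739 to 42321 in untreated and 16008 to 67626 in ligand-treated rats. By ligand this muscle sum was 45623.5 to 60777.2 with AG035029, above all untreated arrays. It was 26050.8 to 32493.8 with pioglitazone, 16008.2 to 18313.7 with rosiglitazone and 16546.4 to 67625.7 with troglitazone. All AG035029 arrays lay above all untreated arrays for 5.27% of single muscle probe sets. The AG035029 group had the lowest muscle mean of Aqp1 on both probe sets. Over all muscle probe sets 0.242% passed for the ligand mean, so these counts of 0 were near the background. In adipose tissue the red cell sum was 22798 to 26041.2 in untreated rats and 14209.6 to 22273.9 with AG035029, so these ranges did not overlap. All AG035029 arrays lay below all untreated arrays for 19.8% of single adipose probe sets. In adipose tissue the AG035029 group was lowest in Aqp1 on the first probe set only. The red cell sum was 24410.3 to 38047.4 with pioglitazone, 29840 to 31625.1 with rosiglitazone and 23797.6 to 33338.3 with troglitazone. No marker was listed at 0. The part of these cells in the Aqp1 difference was not tested.

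The genes whose adipose pattern over 18 arrays was most like that of Aqp1 were Ecm1 (r = 0.935), an extracellular matrix protein, Col14a1 (0.921), a fibril-associated collagen, Tppp3 (0.899) and Septin8 (0.897). In muscle they were the transferrin receptor gene Tfrc (0.819), the IGF-binding protein gene Igfbp5 (0.796), Ift52 (0.789) and Acsl6 (0.778). In liver the nearest gene was Sptssa (0.715). These correlations are descriptions, as the arrays share groups. Tfrc read 820.7, 1545.7 and 1603.9 in muscle of untreated rats and 419.4 to 1271.3 across the ligand arrays, so unlike Aqp1 its groups overlapped.

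Atp1b1 in adipose tissue was high in untreated obese rats and near the lean level in most ligand arrays. Lean rats gave 627.1, 464.2 and 761.8, with a mean of 618 (SD 149). Untreated obese rats gave 3571.6, 2821.4 and 2224.5, with a mean of 2872.5 (SD 675). The groups did not overlap, the untreated mean was 4.65-fold the lean mean, and the log2 difference was 2.18 ± 0.49.

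Pioglitazone arrays had Atp1b1 signals of 674.8, 508.2 and 743.6, and troglitazone arrays 808.3, 433.1 and 483.6. Rosiglitazone arrays read 1071.7, 3326.7 and 662.9, and AG035029 arrays 2255, 530.1 and 613.9. Thus 10 of 12 ligand arrays lay below the lowest untreated array, and rosiglitazone replicate 2 and AG035029 replicate 1 lay among the untreated arrays. Against the lean range, 7 ligand arrays lay within it, 1 below and 4 above. The mean ligand signal was 35.1% of the untreated one, a log2 difference of -1.78 ± 0.39. By ligand the difference was -2.12 for pioglitazone, -1.07 for rosiglitazone, -2.31 for troglitazone and -1.62 for AG035029, each with a standard error of 0.49.

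Leaving out rosiglitazone replicate 2 moved the Atp1b1 adipose difference for rosiglitazone to -1.72, and leaving out rosiglitazone replicate 3 moved it to -0.57. For AG035029 it was -2.27 without replicate 1 and -1.24 without replicate 2. The second probe set followed the first closely (r = 0.981), at 2.23 ± 0.48 for obese minus lean and -1.59 ± 0.38 for the ligand mean. Its rosiglitazone difference was -0.72, with a 95% interval of -1.74 to 0.29 that holds 0. In adipose tissue obese minus lean was called for 6.02% of tested probe sets, 3.16% higher and 2.86% lower. All obese arrays lay above all lean arrays for 12.9% and below them for 15%, and all ligand arrays lay below all untreated arrays for 6.73% and above them for 4.91%. Atp1b1 was already known to stand out in adipose tissue, so the shares are printed as background only.

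**Figure D2:**
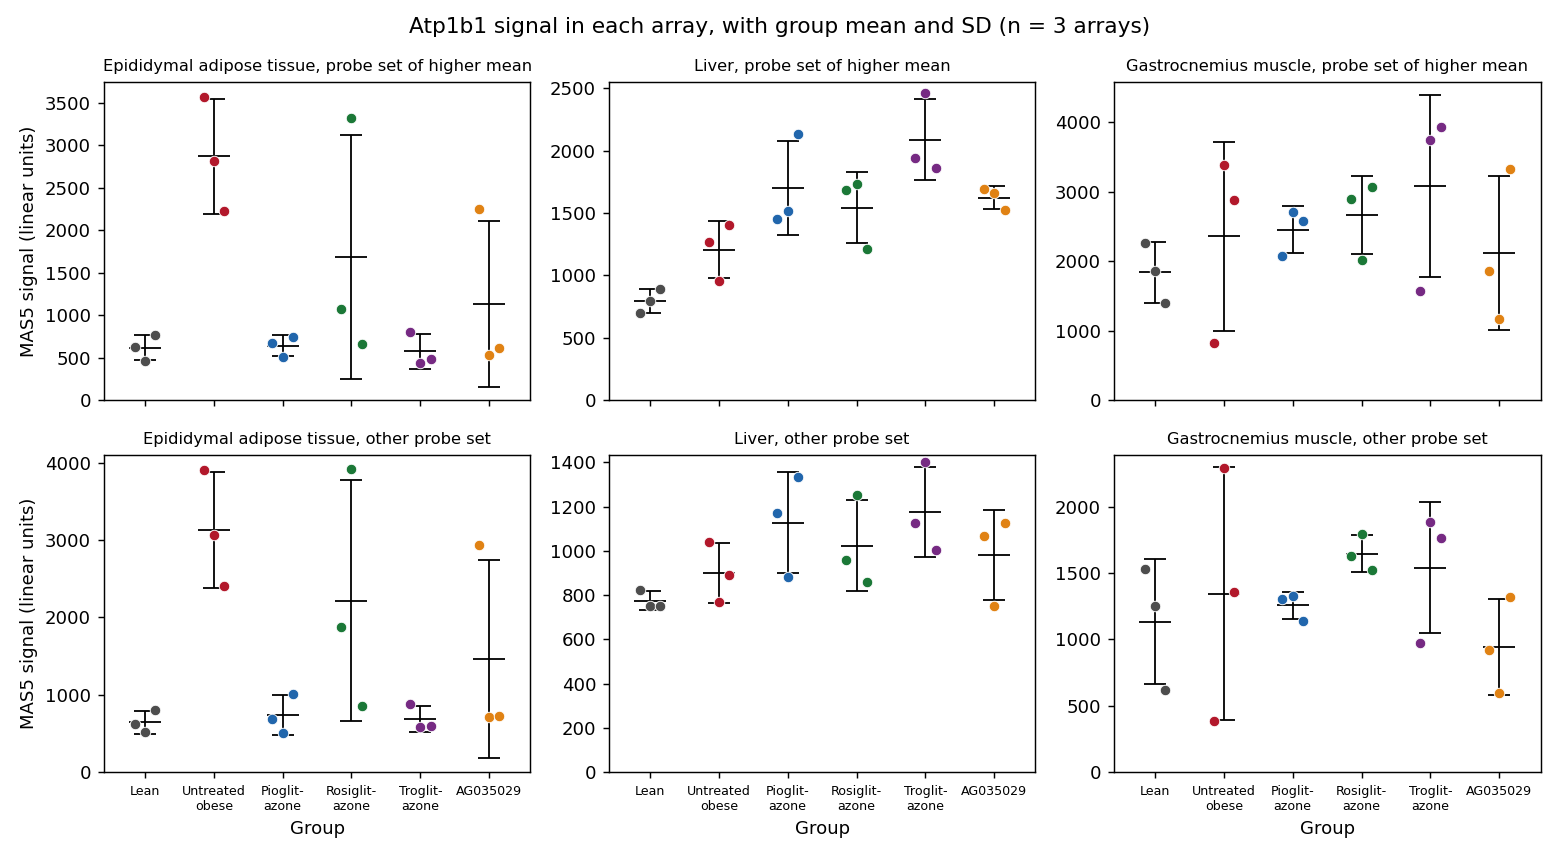
Atp1b1 signal on each array (linear scale) by tissue and group, with the mean and SD of 3 arrays. The top row shows the first probe set and the bottom row the second. In the top row the untreated adipose arrays at 2224.5 to 3571.6 stand above the lean arrays at 464.2 to 761.8. There 2 of the 12 adipose ligand arrays lie among the untreated ones.

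Of the 5 adipose arrays highest in Atp1b1, 4 also read high for epithelial transcripts, and untreated replicate 3 did not. Epcam read 1155.5, 575.3 and 17.9 in untreated replicates 1, 2 and 3, 2145.6 in rosiglitazone replicate 2, 892.4 in AG035029 replicate 1 and 8.7 to 62.8 elsewhere. The nearest genes to Atp1b1 over the 18 adipose arrays were Lrp2 (r = 0.873) and Cubn (0.855), endocytic receptors of absorptive epithelia, then Papss1 (0.851) and Macir (0.842). Lrp2 read 793.6, 633 and 141.4 in untreated rats, 1036.3 in rosiglitazone replicate 2, 485 in AG035029 replicate 1 and 61.6 to 196.7 on the other ligand and lean arrays. Epcam itself correlated with Atp1b1 at r = 0.871 and the epithelial keratin Krt8 at 0.782. Krt8 read 1590.6, 853.4 and 247.1 in untreated rats, 1808.2 in rosiglitazone replicate 2 and 1480.2 in AG035029 replicate 1.

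Untreated replicate 3, which had little Epcam, still read 2224.5 for Atp1b1, above every lean array. Without the 4 arrays high in Epcam the Atp1b1 difference was 1.84 for obese minus lean, resting on that replicate as the only untreated array, and -1.76 for the ligand mean. By ligand it was then -1.78 for pioglitazone, -1.38 for rosiglitazone, -1.97 for troglitazone and -1.93 for AG035029. For Aqp1 the same omission gave -0.26 for obese minus lean and -0.90 for the ligand mean, with -0.75 for pioglitazone and rosiglitazone, -0.86 for troglitazone and -1.26 for AG035029.

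Lists of other cells that fat may hold moved as follows. Bile-duct epithelial markers summed to 2233 to 2788 in lean, 4078 to 8340 in untreated and 1521 to 11262 in ligand-treated adipose tissue. Of the 3 tested genes of this list, 2 fell with the ligand mean, against 11.6% of all probe sets. The keratin Krt19 was not among them, at -1.17 (limma, adjusted p = 0.152), and Krt7 was too dim to be tested. This list shares Spp1 with the macrophage list. Mesothelial markers summed to 1844 to 5811 in untreated and 1370 to 5420 in ligand-treated rats. For these markers 0 of 5 passed the ligand test (limma), with 1 at an unadjusted p under 0.05, against 20.6% of all adipose probe sets that passed. An epididymal-epithelium list summed to 6790.5 in AG035029 replicate 1, against 356.9 to 650.9 on the other adipose arrays, with the defensin Defb1 at 4623, and 0 of its 7 genes on the array were bright enough to be tested. Macrophage markers summed to 18559 to 21602 in lean, 36483 to 39115 in untreated and 16747 to 33481 in ligand-treated rats. Of 11 macrophage markers, 6 rose in obese rats and 8 fell with the ligand mean, against 3.16% and 11.6% of all adipose probe sets. The part of these cells in the Atp1b1 difference was not tested.

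The recorded earlier result for Atp1b1 was in adipose tissue, so in liver the gene was tested, and it did not pass in any comparison. Whether liver or muscle values also entered the choice is not recorded, so these p-values may not be independent of it. Lean rats gave 698.4, 797.6 and 893.4, and untreated obese rats 1264.3, 953.2 and 1406. The obese arrays all lay above the lean ones, as did those of 6.56% of liver probe sets, and the difference was 0.58 ± 0.20 (limma, adjusted p = 0.243). For obese minus lean 0.672% of liver probe sets passed.

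Most ligand arrays read above the untreated ones for Atp1b1 in liver. Pioglitazone arrays read 1455.7, 1516.7 and 2135.2, rosiglitazone arrays 1681.9, 1734.4 and 1213.1, troglitazone arrays 1941, 2460.3 and 1861.4, and AG035029 arrays 1692.7, 1659.5 and 1521. Of these 12 arrays, 11 lay above the highest untreated array and all 12 above the highest lean array. All ligand arrays lay above all untreated arrays for 0.63% of liver probe sets, and above all lean arrays for 1.66%. The ligand mean was 144% of the untreated mean. Its log2 difference was 0.51 ± 0.15 and missed the threshold (limma, adjusted p = 0.158), which 0.494% of liver probe sets reached.

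By ligand, the Atp1b1 liver difference was 0.79 ± 0.20 for troglitazone (limma, adjusted p = 0.0736), and this p ran from 0.0566 to 0.571 over the alternatives. It was 0.49 for pioglitazone (adjusted p = 0.608), 0.35 for rosiglitazone (0.620) and 0.44 for AG035029 (0.502), all from limma. The shares of liver probe sets that passed were 0.021% for pioglitazone, 0.063% for rosiglitazone, 0.662% for troglitazone and 0.2% for AG035029. Without troglitazone replicate 3, the array with muscle-fibre transcripts, the troglitazone difference was 0.86 (limma, adjusted p = 0.129). The second probe set gave smaller liver values of 0.20 for obese minus lean and 0.24 for the ligand mean, and its groups overlapped. On it 7 of the 12 ligand arrays lay above the highest untreated array and 1 below the lowest. Only 2 of the 3 lean arrays lay below the lowest untreated array there. The 2 probe sets correlated at r = 0.762 in liver. The liver gene most like Atp1b1 was Fkbp5 (r = 0.845), a chaperone gene induced by glucocorticoids, followed by Gtf3c2 (0.827), Ephx2 (0.820) and the bile acid enzyme gene Cyp27a1 (0.817).

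In muscle Atp1b1 spread widely within groups, the groups overlapped and no comparison passed. Lean rats gave 2262.4, 1863.7 and 1391.3, and untreated obese rats 817.3, 3375.6 and 2873.1, a difference of 0.15 ± 0.43 (limma, adjusted p = 0.997). The ligand arrays ran from 1160.9 to 3928.7 with a median of 2642.2, and 2 of the 12 lay above the highest untreated array and 0 below the lowest. The ligand mean difference was 0.28 ± 0.34 (limma, adjusted p = 0.921). It was 0.28 for pioglitazone (adjusted p = 0.981), 0.39 for rosiglitazone (0.914), 0.51 for troglitazone (0.764) and -0.05 for AG035029 (0.992), all from limma. In muscle 0.021% of probe sets passed for obese minus lean, 0.231% for pioglitazone, 0.0315% for rosiglitazone, 0.704% for troglitazone and 0.116% for AG035029. Without untreated replicate 1 the obese minus lean difference was 0.78 (limma, adjusted p = 0.980) and the ligand mean turned to -0.35 (limma, adjusted p = 0.940).

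The muscle genes most like Atp1b1 over 18 arrays were troponin C of slow muscle, Tnnc1 (r = 0.910), the myosin gene Myh2 (0.907), the slow-twitch calcium pump gene Atp2a2 (0.905) and Tnni1 (0.905). Tnnc1 read 1396.3, 16944.8 and 6226.2 in untreated rats and 10862.4, 2389.5 and 17581.3 with AG035029. The untreated array lowest in Tnnc1 was also the lowest in Atp1b1, as was the lowest AG035029 array. The part of fibre content in the Atp1b1 values was not tested.

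**Figure D3:**
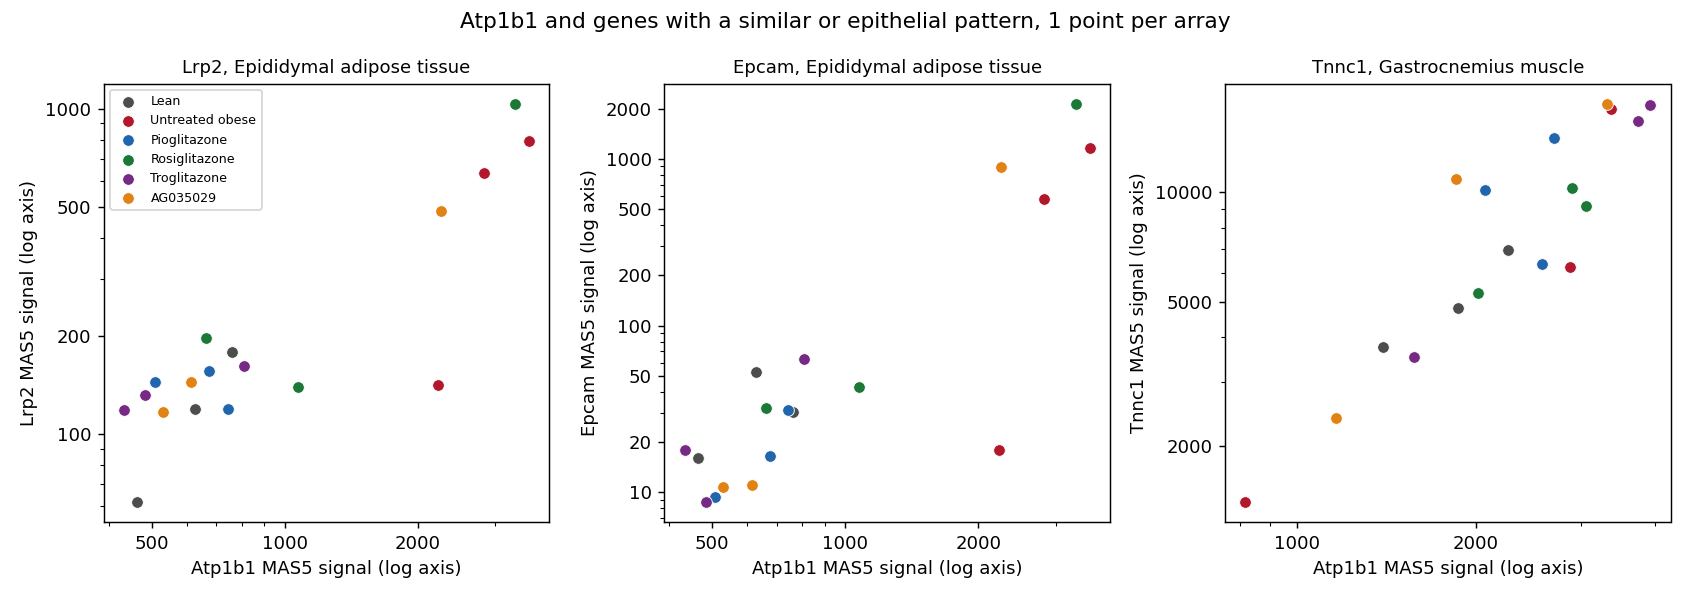
Atp1b1 signal against Lrp2 and Epcam in adipose tissue and against Tnnc1 in muscle, 1 point per array, 18 per panel, on log axes with groups by colour. The points run from low in both to high in both, with r on the log2 scale of 0.873 for Lrp2, 0.871 for Epcam and 0.910 for Tnnc1, while adipose untreated replicate 3 combines an Epcam signal of 17.9 with an Atp1b1 signal of 2224.5.

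Differences between ligands were tested for both genes. The choice of Aqp1 names no comparison, so its p-values here are not independent of that choice if ligand differences entered it. The same holds for the adipose p-values of Atp1b1, which was picked out by its adipose values. No difference among ligands passed the F-test for Atp1b1 (limma, adjusted p = 0.615 for adipose tissue, 0.930 for liver, 0.878 for muscle) or for Aqp1 (limma, adjusted p = 0.439, 0.976 and 0.750 in that order). Over all probe sets, the F-test passed for 0.0315% (adipose tissue), 0.0105% (liver) and 0% (muscle), with 878, 601 and 921 at an unadjusted p under 0.05. Of 36 pairwise differences between ligands, 0 passed (limma) and 5 had an unadjusted p under 0.05. Depending on the pair and tissue, 0, 0.0105, 0.021 or 0.042% of all probe sets passed.

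The pair with the smallest unadjusted p was rosiglitazone and AG035029 for Aqp1 in adipose tissue. Rosiglitazone was higher by 0.93 (95% interval 0.41 to 1.46; limma, adjusted p = 0.253), and by 0.62 without rosiglitazone replicate 2 (0.14 to 1.09; limma, adjusted p = 0.451). Pioglitazone was above AG035029 by 0.62 there (0.10 to 1.14; limma, adjusted p = 0.786), and troglitazone by 0.51 (-0.01 to 1.03; limma, adjusted p = 0.639). On the second Aqp1 probe set AG035029 was not the lowest group. In muscle the Aqp1 difference of rosiglitazone from AG035029 was 0.39 (-0.09 to 0.87; limma, adjusted p = 0.769).

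For Atp1b1 in adipose tissue, rosiglitazone was above troglitazone by 1.24 (95% interval 0.20 to 2.28; limma, adjusted p = 0.389), and without rosiglitazone replicate 2 by 0.59 (-0.34 to 1.52; limma, adjusted p = 0.825). Among the thiazolidinediones, pioglitazone minus rosiglitazone was -1.05 (-2.09 to -0.01; limma, adjusted p = 0.808), and -0.40 without the same array (limma, adjusted p = 0.979). In liver rosiglitazone minus troglitazone was -0.44 (-0.84 to -0.03; limma, adjusted p = 0.967). A p that misses the threshold is no evidence of equal action, and each adipose interval given here with all arrays reaches past 1 or -1 on the log2 scale.

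**Figure D4:**
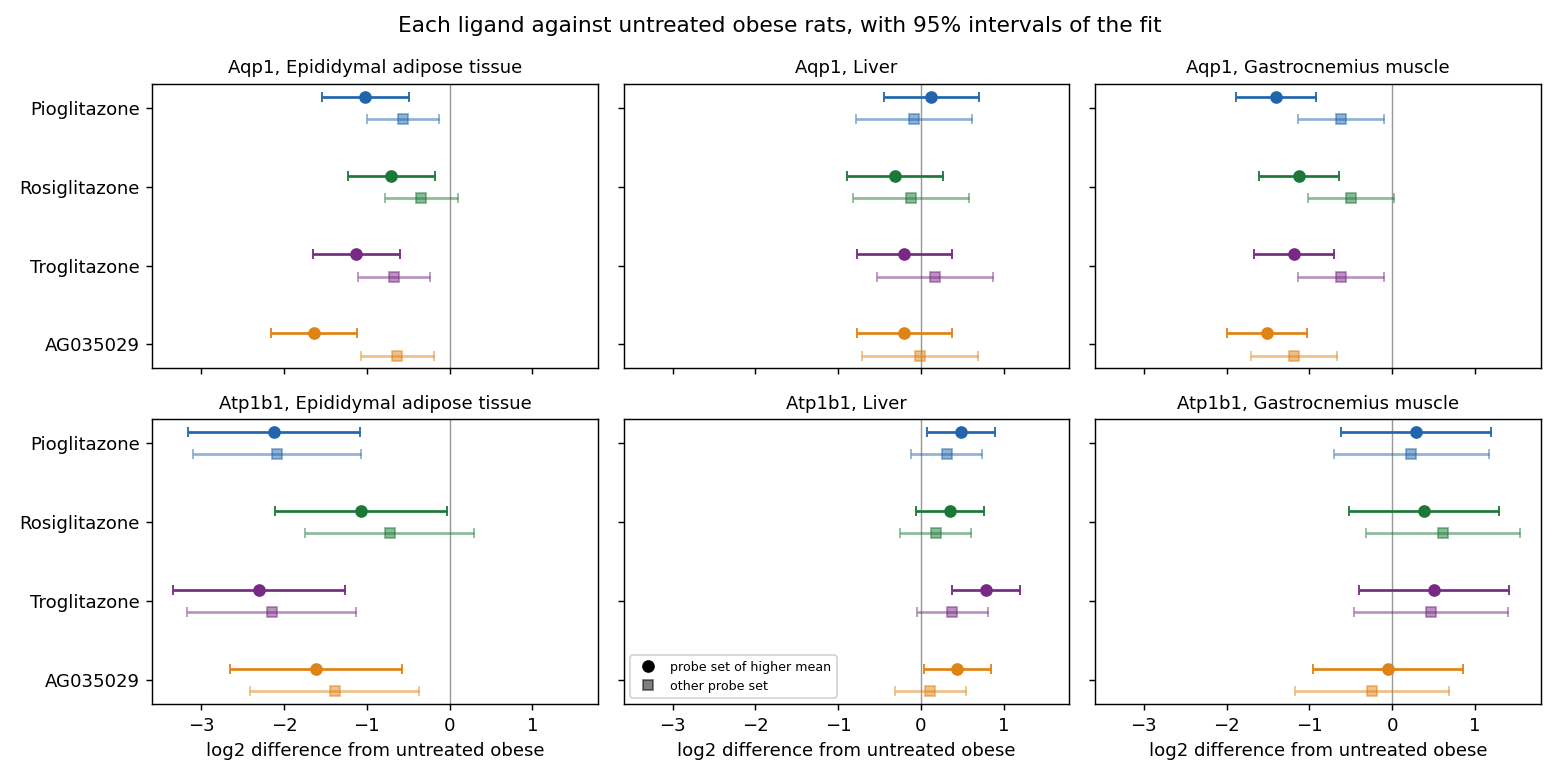
Difference of each ligand group from untreated obese rats in log2(signal + 20) for Atp1b1 and Aqp1 in each tissue, with 95% intervals, circles for the first and squares for the second probe set. The Aqp1 estimates lie below 0 for all 4 ligands in adipose tissue and muscle on both probe sets. Those of Atp1b1 lie below 0 in adipose tissue and above 0 in liver on the first probe set. These are point estimates, and not every interval lies clear of 0.

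The order of levels over the 18 groups differed between the genes. For Aqp1 the 6 liver groups came lowest, with means of 247 to 345, then the muscle and adipose ligand groups from 722 to 1824. Untreated and lean muscle followed at 2161 and 2204, and lean and untreated adipose tissue were highest at 2818 and 2853. The only neighbours in that order whose arrays did not overlap were pioglitazone-treated liver (345) and AG035029-treated muscle (722). For Atp1b1 every pair of neighbours overlapped, from 575 in troglitazone-treated adipose tissue to 3080 in troglitazone-treated muscle. Over 18 arrays the genes correlated at r = 0.362 (adipose tissue), -0.119 (liver) and -0.0636 (muscle).

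Other genes of sodium and water handling were taken from 4 lists of 80 symbols, 66 of them on the array. The lists were chosen with earlier results of these data known, so their shares and p-values may not be independent of that choice. In adipose tissue 39 were tested, and obese minus lean was higher for 1 and lower for 3, or 10.3%, with a list median of -0.04 against -0.02 for all probe sets. The ligand mean was higher for 2 and lower for 6, or 20.5%, close to the 20.6% of all probe sets, with a list median of -0.02. In liver 0 of 40 passed in either comparison (limma), with 6 at an unadjusted p under 0.05 in each. Over all liver probe sets 0.672% passed for obese minus lean and 0.494% for the ligand mean. In muscle 0 of 37 passed for obese minus lean (limma), with 2 at an unadjusted p under 0.05, and 1 of 37 rose with the ligand mean. Over all muscle probe sets 0.021% and 0.242% passed in that order, so the counts of 0 in both tissues were near the background.

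Among other sodium pump subunits and FXYD regulators, 3 of 6 tested fell in adipose tissue with the ligand mean, against 11.6% of all probe sets. Fxyd5, a pump regulator that also affects cell adhesion, read 697.9, 804.3 and 855.4 in untreated rats, 442.6, 535.2 and 530.9 in lean rats and 367 to 683.9 with a ligand. It rose by 0.62 ± 0.14 in obese rats (limma, adjusted p = 0.0107) and fell by 0.66 ± 0.11 with the ligand mean (limma, adjusted p = 0.000341). All its ligand arrays lay below all untreated ones, as for 6.73% of adipose probe sets. Fxyd2, the gamma subunit best known from kidney, fell by 0.58 ± 0.14 (limma, adjusted p = 0.00749). Atp1b3, another beta subunit, fell by 0.55 ± 0.14 (limma, adjusted p = 0.00910), from 4233.9, 2616.9 and 4762.4 in untreated rats to 1985.8 to 3174.3, and its groups overlapped. Fxyd1 differed by -0.30 for obese minus lean and -0.11 for the ligand mean and did not pass (limma, adjusted p = 0.157 and 0.447).

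Aqp7, the glycerol channel of adipocytes, moved opposite to Aqp1. In adipose tissue it read 5267.3, 5411.9 and 6490.1 in untreated rats and 6926 to 11144.5 with a ligand. That is a rise of 0.74 ± 0.11 (limma, adjusted p = 9.31e-05) without overlap. All ligand arrays lay above all untreated arrays for 4.91% of adipose probe sets, and 9.01% were called higher. Of the 9 listed aquaporins on the array beside Aqp1, only Aqp7 was bright enough to be tested in adipose tissue. In muscle Aqp7 read 112.7, 378.2 and 368.7 in untreated rats and 521.7 to 2196.5 with a ligand, a rise of 1.71 ± 0.29 (limma, adjusted p = 0.00501). Complete separation above untreated rats in muscle was found for 0.326% of probe sets. The summed adipocyte signal in muscle was 3365 to 6020 in untreated and 8753 to 32864 in ligand-treated rats, with Fabp4 up by 2.03 and Pparg by 2.01 (limma, adjusted p = 0.000296 and 0.00278). The part of adipocytes in the muscle Aqp7 rise was not tested, and the call ended without untreated replicate 1 (limma, adjusted p = 0.0995).

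Of the routes by which sodium enters or leaves cells beside the pump, 19 genes were tested in adipose tissue and 1 passed in each comparison. That is 5.26%, against 6.02% of all probe sets for obese minus lean and 20.6% for the ligand mean. The bicarbonate cotransporter gene Slc4a4 fell by 1.26 ± 0.22 in obese rats (limma, adjusted p = 0.00217), from 357.6, 413.3 and 585.1 to 195.1, 180.1 and 147.3. The sodium-calcium exchanger gene Slc8a1 fell by 1.06 ± 0.16 with the ligand mean (limma, adjusted p = 0.000134), from 513.1, 386.4 and 336.6 to between 103.4 and 250.5. Neither gene's groups overlapped, as for 15% of all probe sets with obese arrays below lean ones and 6.73% with ligand arrays below untreated ones.

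Of 13 genes for hormones and signals of fluid balance, 2 (15.4%) fell in obese adipose tissue and, with the ligand mean, 1 rose and 2 fell (23.1% in all). Over all adipose probe sets 6.02% and 20.6% passed in these comparisons, so the ligand share was near the background. Npr1, the natriuretic peptide receptor that makes cyclic GMP, fell by 0.77 ± 0.10 with the ligand mean (limma, adjusted p = 2.93e-05), from 641.1, 574.2 and 678.8 to between 286.7 and 417.8. Hsd11b2, which inactivates glucocorticoids at the mineralocorticoid receptor, fell by 0.56 ± 0.12 (limma, adjusted p = 0.00320). The angiotensinogen gene Agt fell by 1.85 ± 0.41 in obese rats (limma, adjusted p = 0.0106). Vegfa, which encodes the vascular permeability factor VEGF-A, fell by 0.55 ± 0.14 in obese rats and rose by 0.39 ± 0.11 with the ligand mean (limma, adjusted p = 0.0279 and 0.0185). On a second Vegfa probe set the obese difference of -0.38 did not pass (limma, adjusted p = 0.244), and the ligand difference of 0.43 did (limma, adjusted p = 0.0431).

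Without the 4 arrays high in Epcam, some pathway calls ended in both comparisons. In each comparison a gene also passed that was not called with all arrays. The ligand calls of Fxyd5, Aqp7 and Npr1 held then and without each single array, and so did the obese call of Slc4a4. Without the 4 arrays, which leaves 1 untreated array, the ligand differences of Fxyd2 (-0.67), Slc8a1 (-0.83), Hsd11b2 (-0.65) and Vegfa (0.22) no longer passed (limma, adjusted p = 0.118, 0.0613, 0.0688 and 0.562). The obese minus lean differences of Fxyd5 (0.75), Agt (-2.15) and Vegfa (-0.38) did not pass there either (limma, adjusted p = 0.0762, 0.0558 and 0.386). For Fxyd2, Hsd11b2, Fxyd5 and Agt these differences were no smaller than with all arrays. Single arrays ended calls too. The obese call of Fxyd5 was lost without untreated replicate 3 or lean replicate 1, that of Agt without untreated replicate 2 or 3 or lean replicate 1, and that of Vegfa without untreated replicate 1 or 2 or any of the lean arrays. Among ligand calls, Fxyd2 was lost without untreated replicate 3, Vegfa without untreated replicate 1 or 2, and Atp1b3 without untreated replicate 1 or 3, at an adjusted p of up to 0.108 for Atp1b3 (limma).

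**Figure D5:**
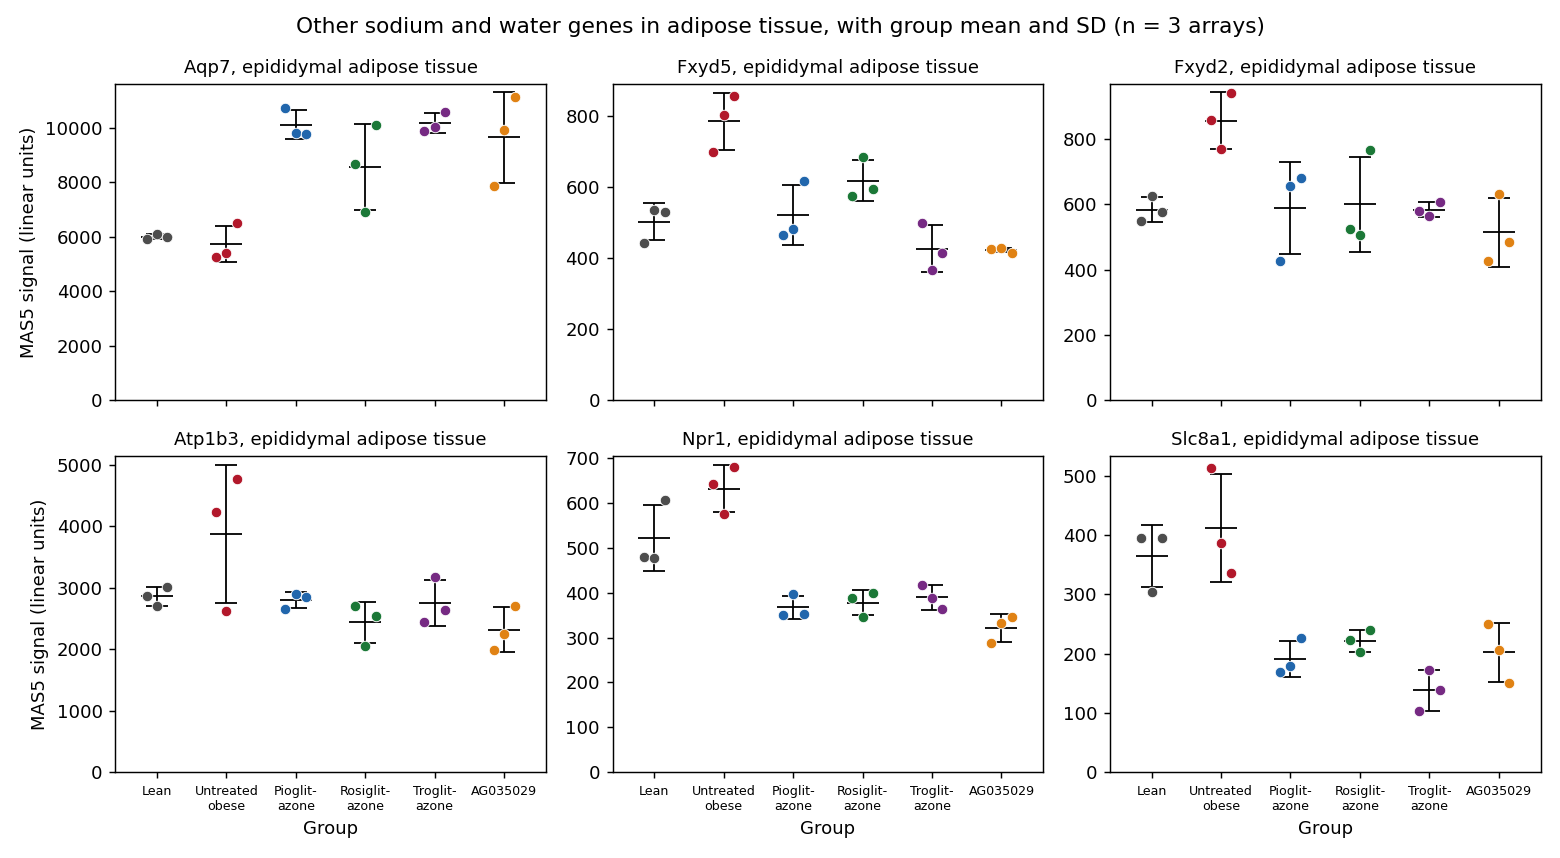
Adipose signals of Aqp7, Fxyd5, Fxyd2, Atp1b3, Npr1 and Slc8a1 on each array by group, with the mean and SD of 3 arrays. Aqp7 ligand arrays lie above all untreated arrays, those of Fxyd5, Fxyd2, Npr1 and Slc8a1 lie below all untreated arrays, and Atp1b3 overlaps.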

How the data were processed

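The authors deposited linear intensities, and the submitters' processing notes name MAS5, the Affymetrix signal algorithm, with no version. Per the labels' protocols, RNA from 2 rats was pooled for each Rat Expression 230A array. From the deposited values, log2(signal + 20) was taken without further scaling, and in each tissue the 9519 probe sets whose mean exceeded its 40th percentile were tested. Limma 3.58.1 in R 4.3.3 (eBayes with trend) fitted the 18 arrays of a tissue, with 12 residual degrees of freedom and Benjamini-Hochberg adjustment over all tested probe sets at 0.05. The labels do not say that pools came from separate rats, so p-values measure the spread between these arrays. The steps were checked on simulated data.

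Both genes, the gene lists and the tests were chosen with earlier results of these data known. A list gene was named if it was among the 4 smallest adjusted p-values called in its list, tissue and comparison, and Atp1b3, Fxyd1 and Aqp7 were named in any case. Nearest genes are the 4 with the highest Pearson correlation over 18 arrays. A gene with several probe sets is given by the brightest. The omission of the adipose arrays high in Epcam, the second-probe-set fits and the epithelial genes given by array were chosen after the values were seen. Same-numbered arrays of different groups had mean residual correlations of 0.0184 (adipose tissue), 0.00322 (liver) and 0.0117 (muscle), and no pairing was assumed. Promoter sequence and start are from RefSeq (GRCr8).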

Additional observations from a re-analysis of the deposited data

Results flagged for a closer look

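For 3 ligands every Atp1b1 array lay below the mean log2 signal of untreated rats in adipose tissue and above it in another tissue, and these differences between tissues were not tested. With pioglitazone the adipose difference was -2.12 and the liver difference 0.49, which are 2.603 apart. The muscle difference with pioglitazone was 0.28, which is 2.399 from the adipose one, and without untreated replicate 1 of muscle it was -0.35. Troglitazone had -2.31 in adipose tissue and 0.79 in liver, 3.094 apart. AG035029 had -1.62 in adipose tissue and 0.44 in liver, 2.055 apart. The adipose values include untreated replicates 1 and 2 and AG035029 replicate 1, which also carried epithelial transcripts.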

How the results depend on the processing

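The second Aqp1 probe set moved the ligand mean to -0.5517 in adipose tissue and -0.7304 in muscle and obese minus lean in liver to -0.5097. Atp1b1 in muscle turned direction when single arrays were left out, from -0.2288 to 0.7811 for obese minus lean and from -0.3539 to 0.656 for the ligand mean. By ligand these ranges were -0.3531 to 0.6569 (pioglitazone), -0.2488 to 0.7611 (rosiglitazone), -0.1274 to 0.9331 (troglitazone) and -0.6864 to 0.3235 (AG035029). The count of sodium and water genes that passed in adipose tissue for obese minus lean was 4, and it was 8 with array weights, 2 without the 4 arrays high in Epcam and 1 to 5 with each array left out, the lowest without lean replicate 1. For the ligand mean it was 8, against 5 without those 4 arrays (1 higher, 4 lower) and 6 to 12 with each array left out, the highest without rosiglitazone replicate 2. In liver both counts of 0 became 1 with the replicate number as a block, and the ligand count was 0 to 3 with each array left out, the highest without untreated replicate 2. In muscle the ligand count was 0 to 1, and 0 without untreated replicate 1. Every group holds the same replicate numbers, so the replicate block could not move an estimated difference. Each Atp1b1 and Aqp1 difference thus stayed at its value, such as 2.18 for Atp1b1 in obese minus lean adipose tissue. Aqp1 in liver did not pass a filter at the 60th percentile and has no value there. The causes were not tested. With 3 arrays a group, the obese minus lean test recovered 36.8% of simulated log2 changes of 1 in liver and 54.2% in muscle.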
